A study of Mus musculus with 2 samples.

Results

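BTB zinc finger genes encode DNA-binding proteins with a BTB domain at one end and C2H2 zinc fingers at the other, and 42 of the 21523 protein-coding genes used were examined for binding of HLF. They were taken by symbol: Zbtb followed by a number and at most 1 letter, plus Bcl6 and Bcl6b. All 42 such genes of the RefSeq GRCm38 table could be placed, on 15 chromosomes. Their domains were taken from these symbols and were not read from protein sequence. HLF, or hepatic leukemia factor, belongs to the PAR bZIP transcription factors. It was introduced into Lin-Sca-1+c-Kit+ cells, a fraction that includes haematopoietic stem and progenitor cells, of C57BL/6 mice aged 8 to 10 weeks, with blood given as the tissue. The FLAG-HLF library (n = 1) came from cells infected with a MigR1 retrovirus, labelled MigR1 3xFLAG-HLF/HLF, and the FLAG ctrl library (n = 1) from cells given the MigR1 empty vector. Both were cultured for 5 days with IL-3 at 5 ng/ml, SCF at 50 ng/ml and Flt3L and IL-7 at 10 ng/ml. HLF was thus tagged and delivered by a vector, in cultured cells. Only the FLAG-HLF peak list of 3153 intervals was analysed, so every value below describes 1 library without a replicate, of unknown depth, and the control library was not analysed here.

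In BTB zinc finger proteins the BTB domain pairs subunits and recruits co-repressors or the cullin CUL3, while the zinc fingers select the DNA site. Several members are known for directing blood cell fates. BCL6 acts in germinal centre B cells and follicular helper T cells, PLZF (Zbtb16) in innate-like lymphocytes, ThPOK (Zbtb7b) in CD4 T cells, and LRF (Zbtb7a) in red cells and in the choice between B and T lineages.

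Of the 42 genes, 4 had a FLAG-HLF peak centre in the gene body or within 20 kb: Zbtb7a, Zbtb16, Zbtb20 and Zbtb34. This is 9.52% (95% Clopper-Pearson interval 2.66 to 22.6%), against 15.3% of all protein-coding genes, so the family's share was no higher than the background and its interval holds the background. Genes of the same lengths would give 6.78 genes, a ratio of 0.590 with a counting interval of 0.165 to 1.40. All 5 peaks concerned lay inside the gene they were counted for. No BTB zinc finger gene had a peak centre in the flanks alone, whereas 1800 of the 3294 protein-coding genes near a peak, or 54.6%, did. That share was not matched for gene length, and only 4 members were near a peak. By the gene body alone the same 4 genes stand against 6.94% of all protein-coding genes and 2.89 genes by length, a ratio of 1.39 (0.386 to 3.29). The ratio therefore turned from below to above 1 with the choice of flank, and both intervals include 1. The nearest miss was Zbtb48, 20.2 kb from a peak centre. Counted by any overlap of its 400 bp interval, this peak falls in the 20 kb flank of Zbtb48, by its last base only. The count is then 5 of 42 genes, or 11.9%, with a ratio of 0.733.

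**Figure D1:**
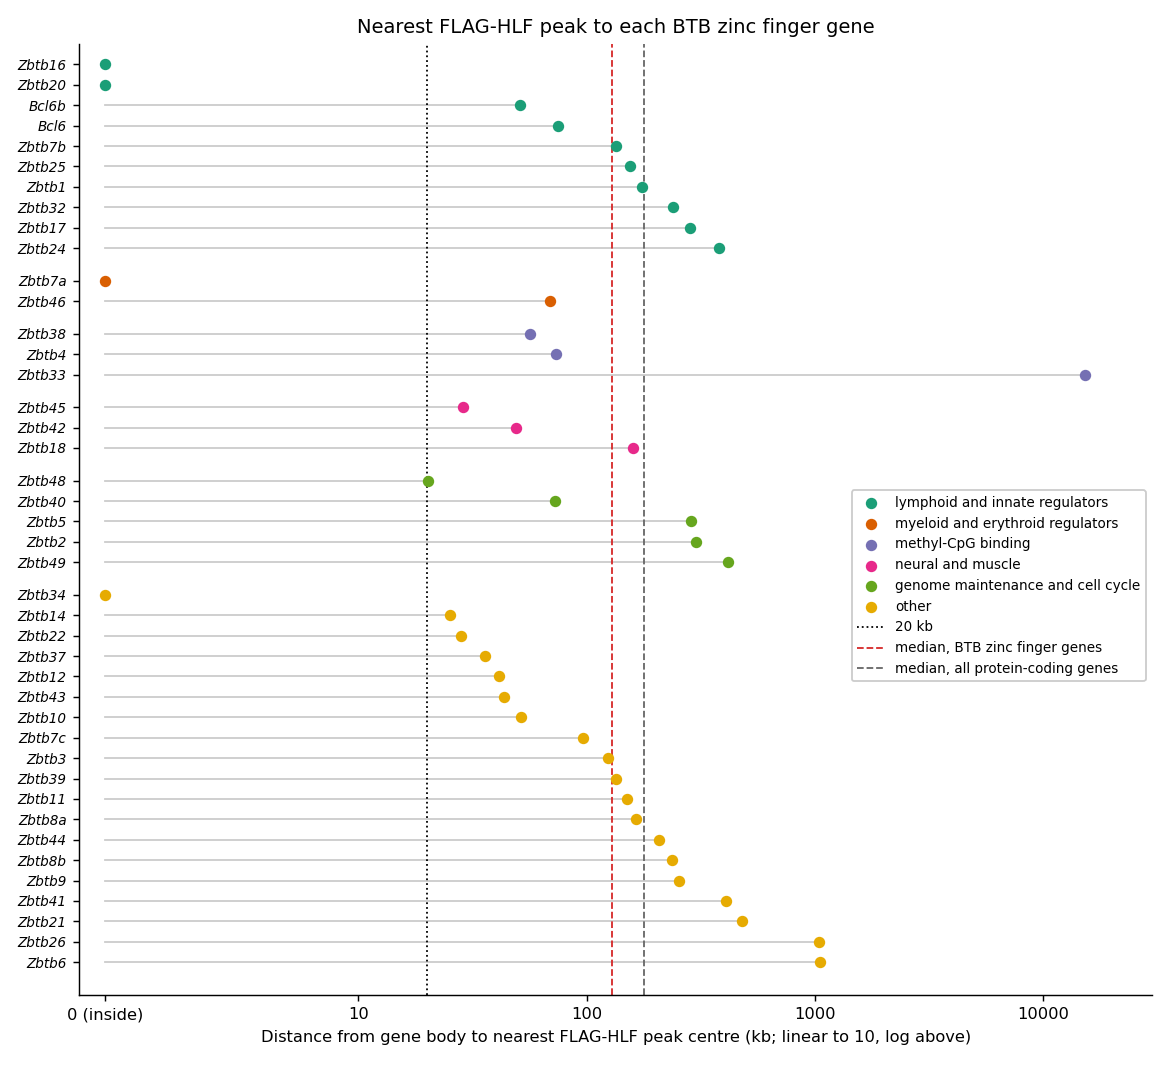
Distance in kb from each of the 42 BTB zinc finger genes (rows, coloured by known role) to the nearest FLAG-HLF peak centre, on an axis that is linear to 10 kb and logarithmic above, with the 20 kb limit dotted and medians dashed. The 4 genes at 0 contain a peak, Zbtb48 lies just past the limit at 20.2 kb, and Zbtb33 lies far from the rest.

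Zbtb7a was the member whose annotated start lay closest to a peak. It encodes LRF, a repressor that silences fetal globin genes in adult red cells. The gene (gene ID 16969) spans chr10:81135225-81152222 on the plus strand. Its single peak, chr10:81137444-81137843, was centred 2.42 kb inside the gene and 1.37 kb downstream of the annotated start. This peak also lay within 20 kb of Map2k2, a MAP kinase kinase gene, and of Pias4, a SUMO ligase gene. It cannot be given to Zbtb7a alone by distance. Among protein-coding genes of like length 4.79% had a peak in the body.

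Zbtb16 was the only member with more than 1 peak. It encodes PLZF, which is required for natural killer T cells and is fused to the retinoic acid receptor alpha in a form of acute promyelocytic leukaemia. The gene (gene ID 235320) spans chr9:48651797-48836225, or 184 kb. Its peaks, chr9:48814536-48814935 and chr9:48819712-48820111, were centred 21.5 and 16.3 kb inside the end of higher coordinate and 5.18 kb from each other. Counted from the end of lower coordinate, they lay at 88.3% and 91.2% of the gene's length. No other protein-coding gene lay within 20 kb of either. Of genes in the same length bin, 21.3% had a peak in the body.

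Zbtb20 is the longest member at 759 kb, and its protein is known as a repressor of alpha-fetoprotein in liver and as a factor of plasma cells. The gene (gene ID 56490) spans chr16:42875689-43634392 on the plus strand. Its single peak, chr16:43574107-43574506, was centred 60.1 kb inside the end of higher coordinate, which is the 3′ end, and 327 kb downstream of the annotated start used here. That start itself lies 372 kb inside the gene. The next peak on the chromosome was 514 kb away, and no other protein-coding gene lay within 20 kb. In this length bin 27.4% of genes had a peak in the body.

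Zbtb34 carried its peak at the 3′ end. The gene (gene ID 241311) spans chr2:33406108-33431324 on the minus strand, and the peak, chr2:33406694-33407093, was centred 0.785 kb inside the end of lower coordinate. It lay 24.4 kb downstream of the annotated start. No other protein-coding gene was within 20 kb, but the neighbouring member Zbtb43 lay 43.4 kb from the same peak. Among genes of like length 7.02% had a peak in the body.

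**Figure D2:**
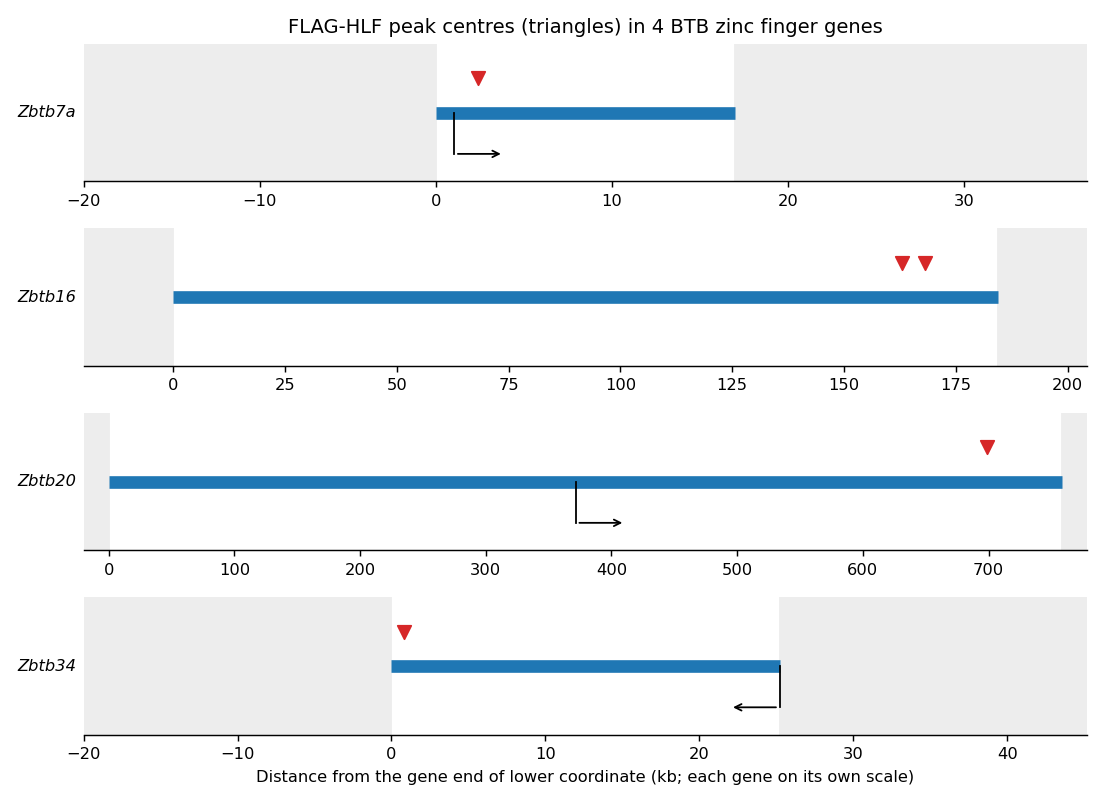
The 4 BTB zinc finger genes that contain FLAG-HLF peaks, each as a blue bar on its own scale in kb from the end of lower coordinate, with grey 20 kb flanks, triangles at peak centres and arrows at annotated starts in the direction of transcription. The Zbtb7a peak lies 1.37 kb past the start, the Zbtb34 peak 24.4 kb past it at the far end. Zbtb16 has no arrow, as no annotated start was available for it.

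The promoters of 3 of these genes are shown because the peaks lay in these genes but outside the windows around their annotated starts. Zbtb16 had no annotated start among the RefSeq promoters used, so none is shown for it. Each runs from 250 bases before to 50 bases after the start, 5′ to 3′ on the gene's strand, from RefSeq (GRCm38.p6), with capitals from the start onward. They lie at chr10:81136021-81136320 (plus strand) for Zbtb7a, chr2:33431275-33431574 (minus strand) for Zbtb34 and chr16:43247034-43247333 (plus strand) for Zbtb20.
Zbtb7a: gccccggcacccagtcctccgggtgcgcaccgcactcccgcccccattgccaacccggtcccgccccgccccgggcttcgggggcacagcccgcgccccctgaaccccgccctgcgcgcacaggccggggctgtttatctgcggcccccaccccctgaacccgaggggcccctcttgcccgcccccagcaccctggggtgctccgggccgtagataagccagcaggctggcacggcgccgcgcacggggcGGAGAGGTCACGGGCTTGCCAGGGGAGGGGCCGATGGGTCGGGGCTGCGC
Zbtb34: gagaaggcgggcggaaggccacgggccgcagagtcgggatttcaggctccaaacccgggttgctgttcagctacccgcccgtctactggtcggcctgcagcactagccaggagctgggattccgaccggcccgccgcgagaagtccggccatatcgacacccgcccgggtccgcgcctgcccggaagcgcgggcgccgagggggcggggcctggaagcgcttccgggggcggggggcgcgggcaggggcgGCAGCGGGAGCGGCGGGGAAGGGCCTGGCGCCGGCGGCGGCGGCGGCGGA
Zbtb20: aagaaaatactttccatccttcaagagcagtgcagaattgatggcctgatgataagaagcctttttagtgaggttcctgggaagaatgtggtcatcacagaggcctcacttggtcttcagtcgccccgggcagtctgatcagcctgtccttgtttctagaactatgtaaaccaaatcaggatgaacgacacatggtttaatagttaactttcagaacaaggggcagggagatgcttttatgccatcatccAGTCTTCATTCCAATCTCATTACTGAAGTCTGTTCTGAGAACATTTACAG

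The first 2 are rich in G and C, at 77.7% for Zbtb7a and 76.7% for Zbtb34, with 31 and 42 CpG dinucleotides. The Zbtb20 window has 43.3% and 3. Over the 50 promoters of 36 members in the table the median G and C content was 63.0% (38.3 to 84.0%), against 56.7% over 21045 promoters of 17274 protein-coding genes. The median CpG count was 25 in members, against 13 in all promoters.

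Letters known from PAR bZIP and C/EBP sites were then searched in these promoters on both strands. TTACGTAA, TTATGTAA, TTATGCAA and TTGCGCAA occurred in 0 of the 50 member promoters, and in 0.138%, 0.903%, 0.798% and 0.223% of all 21045. With background shares this low, 0 of 50 cannot show a lack of these letters in members. The looser TTANNTAA, which takes in TTACGTAA and TTATGTAA, occurred in 2 of the 50 member promoters, against 5.26% of all. These were in Zbtb18, which encodes the neural repressor RP58 (promoter chr1:177444688-177444987, plus strand), and in Zbtb38, whose protein binds methylated CpG (promoter chr9:96731626-96731925, minus strand). The matches are shown with 11 bases on either side and the matching letters in capitals.
Zbtb18, 68 bases before the start: gtttgggtgttTTATTTAAttttttttaaa
Zbtb38, 144 bases before the start: tttgctgtcttTTAAATAAtgtatgttgta
Zbtb38, 122 bases before the start: atgttgtattgTTAATTAAtgtgaatatca

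Neither gene had a peak near these letters, the nearest peak centre being 160 kb from Zbtb18 and 56.3 kb from Zbtb38. The sequence under the peaks themselves was not analysed here.

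Measured from annotated starts, 1 of 36 members with a start in the table, Zbtb7a, had a peak centre within 5 kb (2.78%), against 4.1% of all genes with one. The median distance from a start to the nearest peak was 167 kb in members and 199 kb in all.

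The other 38 members held no peak within 20 kb, and 8 of them had one between 20 and 50 kb away. Most of these peaks lay in or beside other genes. The peak 20.2 kb from Zbtb48, which encodes the telomere-binding protein TZAP, was within 20 kb of Dnajc11, Klhl21, Phf13 and Thap3. That 28.2 kb from Zbtb22 was inside Wdr46 and near 6 further genes. The peak 28.8 kb from Zbtb45 was within 20 kb of 5 genes, among them Trim28, which encodes the KAP1 co-repressor. That 35.8 kb from Zbtb37 was within 20 kb of Klhl20 and Cenpl, that 41.3 kb from Zbtb12 was near Neu1, Slc44a4 and Hspa1b, and that 49.0 kb from Zbtb42 was inside Adssl1. Zbtb14 had peaks at 25.2 and 48.7 kb. The nearer of these was within 20 kb of no protein-coding gene, and the farther was inside Akain1. Zbtb43 completes the 8 through the Zbtb34 peak described above. Of the 30 members farther away, 8 lay 50 to 100 kb, 8 lay 100 to 200 kb, 11 lay 200 to 500 kb and 3 lay over 500 kb from a peak.

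Members known in lymphoid and innate cells ranged widely in distance to the nearest peak, and 2 of 10, Zbtb16 and Zbtb20, were near one. Bcl6b, the closest relative of BCL6, was 50.8 kb from a peak. Bcl6 itself was 74.7 kb away, although by nearest gene end within 100 kb a peak fell to it. Zbtb7b, the ThPOK gene, was 134 kb away. Zbtb25 and Zbtb1, a gene needed for lymphoid development, overlap by 164 bp and had the same nearest peak, at 154 and 175 kb. Zbtb32 (PLZP) was 240 kb, Zbtb17, which encodes the MYC partner MIZ1, 283 kb and Zbtb24, a gene of the ICF immunodeficiency syndrome, 378 kb from a peak. Of the 2 members grouped as myeloid and erythroid, Zbtb7a held a peak and Zbtb46, a marker gene of classical dendritic cells, was 68.8 kb from one.

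The remaining role groups had no gene near a peak, apart from Zbtb34 among the 19 members given no role. The 3 genes of methyl-CpG binding proteins, Zbtb38, Zbtb4 and Zbtb33, were 56.3, 73.6 and 15124 kb from a peak. Zbtb33, the Kaiso gene, is the only member on X. The 3 neural and muscle genes lay at 28.8 kb (Zbtb45), 49.0 kb (Zbtb42) and 160 kb (Zbtb18). The 5 genome maintenance and cell cycle genes ran from 20.2 to 414.5 kb, with a median of 287 kb. With 2 to 19 genes in a group, no difference between roles can be read from these counts.

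Members that lie side by side shared their nearest peak in all 4 pairs under 100 kb apart. These were Zbtb34 and Zbtb43, 18.96 kb apart, Zbtb6 and Zbtb26, 1.25 kb apart, Zbtb8a and Zbtb8b, 47.7 kb apart, and the overlapping Zbtb1 and Zbtb25. Such neighbours are not independent observations. Zbtb6 and Zbtb26 were, after Zbtb33, the farthest from a peak, at 1053 and 1040 kb.

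Flanks of up to 20 kb added no member to the 4 with a peak in the body, and wider flanks did. With 50 kb on either side 12 members, or 28.6% (15.7 to 44.6%), had a peak, against 24.6% of all protein-coding genes. With 100 kb there were 20, or 47.6% (32.0 to 63.6%), against 36.9%. With 200 kb there were 28, or 66.7% (50.5 to 80.4%), against 52.6%. Genes of like length would give 11.01, 16.8 and 23.7 members, so the ratios were 1.09, 1.19 and 1.18. Each background share lay inside the members' interval. The median distance from the gene body to a peak was 129 kb in members and 179 kb in all protein-coding genes. Within 500 kb of the gene centre 3 of 42 members (7.14%) had no peak, against 27.9% of all. They were Zbtb33 and the neighbours Zbtb6 and Zbtb26, 1.25 kb apart, and no interval was computed for this share. The median was 2 peaks in members and in all. Whether the lower share without a peak follows from the regions where BTB zinc finger genes lie was not tested. Members had a median of 13.5 other protein-coding genes within the same distance, against 15 for all.

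**Figure D3:**
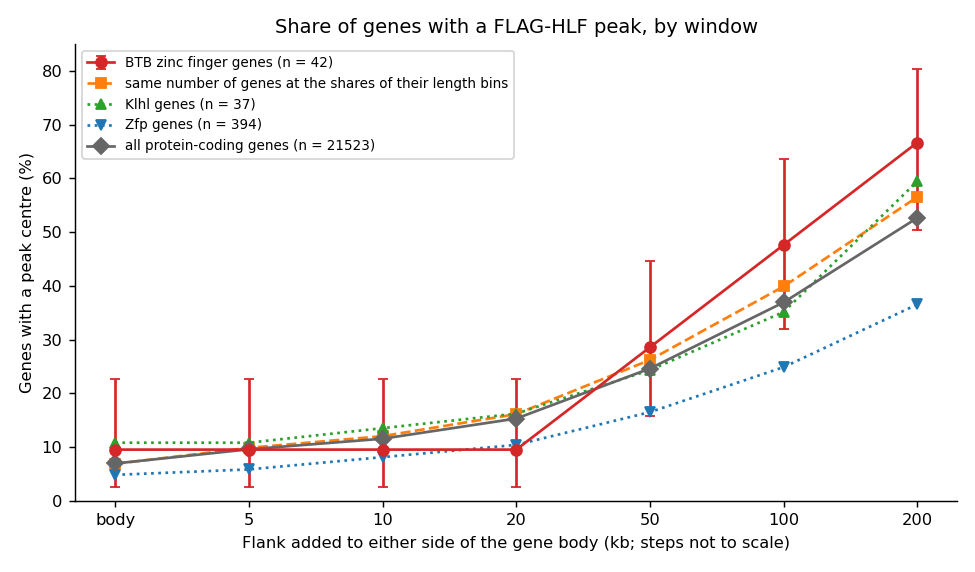
Percentage of genes with a FLAG-HLF peak centre in the body or in a flank of growing width (kb, steps not to scale) for 42 BTB zinc finger genes with 95% Clopper-Pearson bars, for genes of like length, for Klhl and Zfp genes and for all protein-coding genes. The members stay at 9.52% up to 20 kb and reach 66.7% at 200 kb, against 52.6% of all protein-coding genes.

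Of the members near a peak, Zbtb16 and Zbtb20 are long genes, and over genes in general the share near a peak was higher in longer genes. The 4 had a median length of 105 kb (17.0 to 759 kb), against 18.2 kb (2.31 to 328 kb) for the other 38. The ranges overlap. Zbtb20 is the longest, and Zbtb7c, the next at 328 kb, had no peak within 20 kb and lay 96.2 kb from one. Over all autosomal genes the share near a peak was 7.37% in the shortest of 5 classes and 25.3% in the longest, in which 2 of 5 members were near a peak. No member of the 13 in the 2 shortest classes was. In the members' bodies and flanks together there were 1.35 peaks per Mb (5 peaks in 3.71 Mb, 0.438 to 3.15), against 1.80 per Mb (1.73 to 1.87) around all protein-coding genes. In the bodies alone the direction turned, with 2.35 peaks per Mb (0.763 to 5.49) in members, against 1.69 per Mb (1.62 to 1.78) in all protein-coding genes. Both members' intervals include the value for all genes.

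**Figure D4:**
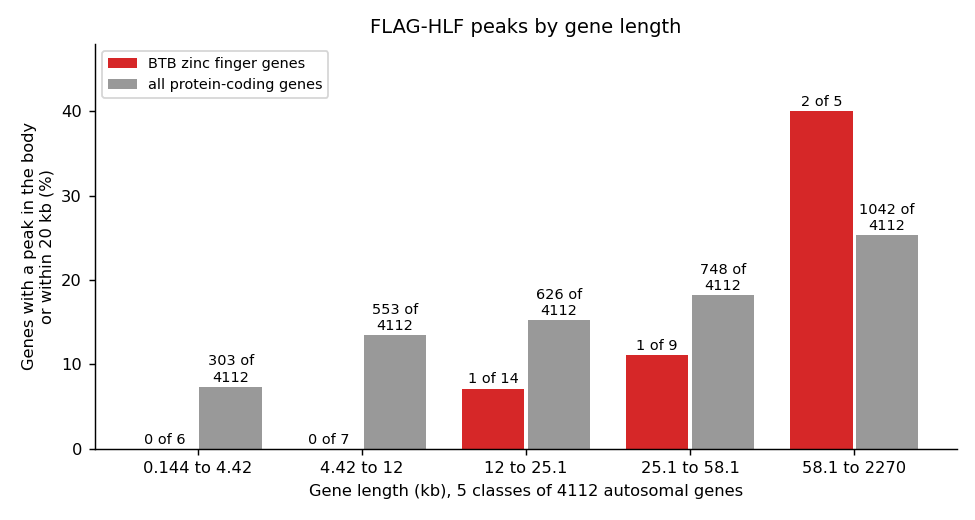
Percentage of genes with a FLAG-HLF peak in the body or within 20 kb in 5 classes of gene length (kb, 4112 autosomal genes each), for BTB zinc finger genes (red) and all protein-coding genes (grey), with counts over the bars. The grey bars go from 7.37% in the shortest class to 25.3% in the longest, and 2 of the 4 members near a peak are in the longest class.

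Families taken by symbol to share 1 of the 2 domains gave similar or overlapping shares at 20 kb. The Zfp genes also include Zfp131, which is listed below as a BTB zinc finger gene. Of 37 Klhl genes, whose products pair a BTB domain with kelch repeats, 6 were near a peak (16.2%, 6.19 to 32.0%; ratio to genes of like length 0.966). Klhl21 and Klhl20 were counted through the peaks that are also nearest to Zbtb48 and Zbtb37. Of 394 Zfp genes, which encode zinc finger proteins, 41 were near a peak (10.4%, 7.57 to 13.9%; ratio 0.638, 0.464 to 0.8497). The interval of the BTB zinc finger ratio at 20 kb (0.590, 0.165 to 1.40) includes the ratios of both families. With wider flanks the members' shares stood above those of the Zfp genes, at 47.6% (32.0 to 63.6%) against 24.9% with 100 kb and 66.7% (50.5 to 80.4%) against 36.5% with 200 kb. The Klhl genes had 35.1% and 59.5% in these windows, inside the members' intervals. These differences were not tested. Of 6 BTB zinc finger genes with other symbols, Hic2 and Gzf1 held a peak each, 0.458 and 1.61 kb inside a gene end, and Patz1, Hic1, Mynn and Zfp131 had none within 20 kb.

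Genes of the partners through which BTB zinc finger proteins act were also read. Of 21 co-repressor and partner genes, 8 were near a peak (38.1%, 18.1 to 61.6%), against 15.3% of all protein-coding genes and 4.22 genes by length. They were Ncor1, Sin3a, Rcor1, Gps2, Tbl1x, Chd4, Hdac7 and Hdac9, parts of co-repressor and histone deacetylase complexes. Sin3a held a peak 1.41 kb inside a gene end, Hdac7 held 2 at 19.4 and 21.4 kb, and Hdac9 held 2 at 107 and 193 kb. Tbl1x, on X, had a peak 0.141 kb outside the gene and another 68.9 kb inside, while the Ncor1 peak lay 13.2 kb outside. Bcor, Cul3 and Hdac3 had none within 20 kb. These genes are long, with a median of 75.8 kb, and the ratio to genes of like length was 1.90 (0.902 to 3.07). Of 17 genes known as BCL6 targets, 5 were near a peak (29.4%, 10.3 to 56.0%; ratio 1.74, 0.609 to 3.30), among them Atr, Bcl2l1, Ccl3 and Gpr183. Their peaks lay outside the gene, the closest 0.108 kb from Ccl3. Prdm1, Irf4, Myc and Cdkn1a had none within 20 kb. Both lists are short, both ratio intervals include 1, and no difference from the background was tested. The lists were also chosen with earlier results of these data known, so these ratios cannot show an excess at such genes.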

How the data were processed

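Anti-FLAG chromatin immunoprecipitation sequencing (ChIP-seq) was labelled for 2 libraries, and the peak list of the FLAG-HLF library was used. The empty-vector library was not analysed here. The authors deposited 3153 intervals of 400 bp with chromosome, start and end and no other measure per peak, so neither a peak's strength nor the read depth is known. Bowtie2 2.0.6, MACS2 2.0.10 and mm10 are named, with no role stated, in the submitters' processing notes. Neither the peak threshold nor the step that set 1 width is given in the sources used here.

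Genes came from the RefSeq table of GRCm38.p6, which shares its chromosome coordinates with mm10. Of its 49997 rows, 783 on Y, the mitochondrial genome, no chromosome or scaffold coordinates were not used, and 21523 protein-coding genes remained. A peak's position was its start plus 200 bp. Genes with such a position inside them, or at most 20 kb from either end, were called near a peak. The number given by genes of like length is the sum, over the BTB zinc finger genes, of the share near a peak among the other protein-coding genes of the same length bin (20 bins on autosomes, 5 on X). It is a description, and no test was run. Intervals for shares are exact Clopper-Pearson and those for densities exact Poisson, both at 95%. They cover counting error over genes or peaks only, and peaks may not be independent of each other. Annotated starts and strand came from the RefSeq promoter table of the same build. Planned counts of zinc fingers in the proteins were not made. The counting was tested on simulated data. The tools were Python 3.11.15, numpy 2.4.6, pandas 2.3.3, SciPy 1.17.1 and Matplotlib 3.10.9.

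Every gene with a peak within 20 kb was named with its peaks, every gene with one within 50 kb with its distance, and of the rest those with lymphoid, innate, myeloid or erythroid roles. The genes and lists were chosen with earlier results of these data known. Some neighbouring and list genes are not reported here by name. Alternatives changed the window, the merging of peaks, the gene list and the length matching.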

Additional observations from a re-analysis of the deposited data

How the results depend on the processing

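The 4 genes with a peak in the body were counted under every flank from 0 to 20 kb, so their share stayed at 9.52% while the share of all protein-coding genes was 6.94% in the body alone, 9.58% with 5 kb and 11.6% with 10 kb. The ratio to genes of like length therefore stood at 1.39, 0.966, 0.792 and 0.590 for flanks of 0, 5, 10 and 20 kb. Its position above or below 1 depended on the flank, as no member was added while the share of all genes rose. With 50 and 100 kb, 28.6% and 47.6% of the BTB zinc finger genes were counted, against 24.6% and 36.9% of all protein-coding genes (ratios 1.09 and 1.19). Within 1 kb of either gene end these shares were 2.38%, which is 1 of 42 genes, and 1.76% (ratio 1.18). With each peak given to the nearest gene end within 100 kb they were 11.9% and 10.99% (ratio 1.06). That rule drops Zbtb20 and adds Bcl6 and Zbtb10. At 20 kb the ratio ran from 0.569 to 0.776 with merged peaks, interval overlap, added symbols, autosomes alone and other length or density matching. Each of these ratios lay within the counting interval at 20 kb. That interval (0.165 to 1.40) belongs to the 20 kb count and holds both 0.590 and 1.39, so it cannot show that the ratio was stable. Of 48 peak counts for 12 single genes, 39 were unchanged or within 1.5 times of the count at 20 kb. The pair in Zbtb16 became 1 when merged, and 8 genes gained a peak at 50 kb. The 12 were chosen for having a peak within 50 kb, so these 8, with none at 20 kb, had to gain there. Their counts of 0 in narrower windows were fixed as well, so the tally cannot show that counts were stable. With 1 library of unknown depth, a missing peak does not show that a site is unbound. No paired analysis was possible because 1 library alone was used.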
